A study of Mus musculus with 57 samples.

Results

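The genes described here are 10 genes of glucocorticoid signalling in the mouse heart. They are 8 genes that the glucocorticoid receptor induces (*Fkbp5*, *Tsc22d3*, *Zbtb16*, *Sgk1*, *Klf9*, *Ddit4*, *Errfi1* and *Cebpd*), the receptor gene itself (*Nr3c1*) and *Hsd11b1*, an enzyme that makes the active hormone. They were taken from a list by gene symbol. This list and the further lists below were chosen with earlier results of these data known. Their counts beside the share of all genes are therefore a description. All 10 were found in both count tables, which hold 25416 genes in the acute and 54658 genes in the chronic study. All 10 also passed the filter on low counts and were tested in both studies, among 14240 and 14960 tested genes.

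Heart RNA of wild-type male C57BL/6 mice was sequenced in 2 studies of doxorubicin (Doxo), an anticancer drug that damages the heart, and nicotinamide mononucleotide (NMN), a precursor of NAD+. In the acute study, mice were bought at 9 weeks of age and hearts were taken on day 5. Ctrl mice (14 hearts) were given vehicle throughout. Doxo mice (13 hearts) were given a single i.p. injection of 20 mg/kg Doxo, with vehicle injections in place of NMN. Doxo-NMN mice (13 hearts) were given that Doxo injection with 180 mg/kg/day NMN i.p. from 5 days before Doxo onwards. Their hearts were taken 2 h after the last NMN injection. In the chronic study, mice aged 14 to 16 weeks were given vehicle (Ctrl, 5 hearts), 5 injections of 4 mg/kg Doxo for a total of 20 mg/kg (Doxo, 6 hearts), or the same with 500 mg/kg/day NMN in the drinking water (Doxo-NMN, 6 hearts), and hearts were taken on day 60. Neither study has a group given NMN without Doxo, each heart comes from another mouse, and hearts could be taken only from mice alive on the day of collection.

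Glucocorticoids are steroid hormones that the adrenal gland releases under stress, fasting and illness. In the cell they bind the glucocorticoid receptor, which leaves its chaperone complex, enters the nucleus and binds glucocorticoid response elements in the DNA, and genes next to such elements are then transcribed more. Heart muscle carries the receptor, and *Hsd11b1* lets a tissue regenerate active hormone from its inactive form, while *Fkbp5* binds to the receptor complex and dampens it, closing a feedback loop.

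The classical glucocorticoid response element is an inverted repeat of the 6 bases AGAACA and TGTTCT around a spacer of 3 bases. It was searched for in the RefSeq promoter windows of the GRCm38.p6 mouse genome, which reach from 250 bases before to 50 bases after a start site. Of the 10 genes, 7 matched an entry, with 15 windows in all. The whole element was found in 1 of these windows, an alternative start of *Sgk1*, and in 3 of all 32851 windows (0.00913%). A single AGAACA, on either strand, was found in 4 windows of 2 genes, *Sgk1* and *Tsc22d3*, and in 19.0% of all windows; this count includes the arms of the whole element. The stretch before the start site is shown for this *Sgk1* window, as the one that holds the element, and for *Fkbp5*, a widely used marker of receptor activity, whose window holds neither form. Capitals mark the element and any AGAACA or TGTTCT, and both sequences read 5′ to 3′ on the gene's own strand and overlap no annotated exon.
Sgk1, chr10:21993640-21993889, plus strand: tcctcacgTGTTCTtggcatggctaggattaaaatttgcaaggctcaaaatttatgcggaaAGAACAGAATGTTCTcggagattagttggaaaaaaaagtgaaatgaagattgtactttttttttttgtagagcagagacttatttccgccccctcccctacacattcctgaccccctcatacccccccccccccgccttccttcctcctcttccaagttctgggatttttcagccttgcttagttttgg
Fkbp5, chr17:28486150-28486399, minus strand: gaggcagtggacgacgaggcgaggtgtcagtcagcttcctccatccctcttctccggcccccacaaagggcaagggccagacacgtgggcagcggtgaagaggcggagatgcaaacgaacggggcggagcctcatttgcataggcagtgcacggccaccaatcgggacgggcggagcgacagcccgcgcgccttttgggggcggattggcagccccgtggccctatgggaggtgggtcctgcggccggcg
The element of *Sgk1* starts 189 bases before the start site of that window. A match of letters is a description of the sequence and not a measured binding site.

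Values are given as CPM, counts scaled to a common library size after TMM normalization, and the 10 genes had 330 to 14879 counts in the acute and 153 to 5354 counts in the chronic hearts. Total counts were 32409622 to 52102850 per heart in the acute and 17769886 to 23862287 in the chronic study. In 3 hearts the 10 genes stood apart from their group. The library labelled acute Doxo replicate 6 was at or near Ctrl levels for most of them, and acute Doxo-NMN replicate 10 was at Doxo levels for several. Chronic Doxo replicate 2 was above the 16 other chronic hearts for 7 genes and below them for *Nr3c1*, but within their range for *Sgk1* and *Errfi1*. Acute Doxo replicate 7 also lay within the Ctrl range for *Ddit4*, *Errfi1* and *Sgk1*. Several, but not all, values that depend on the 3 hearts that stood apart are given with and without them. In whole hearts, fewer cells of a type and less RNA per cell cannot be told apart.

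In acute Ctrl hearts, *Zbtb16* had the highest level per length of transcript, 39.4 ± 4.31 CPM per kb of exons (SD, n = 14). It was followed by *Ddit4* with 32.4 ± 8.41 and *Klf9* with 28.4 ± 2.92 CPM per kb, and neither step in this order was larger than the SD of *Ddit4*. *Tsc22d3* had 18.1 ± 2.22 CPM per kb, *Sgk1* 11.7 ± 2.13 and *Nr3c1* 11.05 ± 0.907, the last pair again within their spread. The lowest levels were those of *Errfi1* with 6.78 ± 0.830, *Fkbp5* with 5.72 ± 1.59, *Cebpd* with 3.81 ± 0.746 and *Hsd11b1* with 2.58 ± 0.456 CPM per kb, of which *Errfi1* and *Fkbp5* did not differ beyond their spread. In acute Doxo hearts *Ddit4* was highest, with 90.1 ± 34.7 CPM per kb (n = 13), and *Nr3c1* lowest, with 7.66 ± 1.63. In chronic Ctrl hearts *Ddit4* was again highest, with 28.6 ± 7.15 CPM per kb (n = 5), and *Fkbp5* lowest, with 1.55 ± 0.208.

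The first question was how a single dose of Doxo moved these genes after 5 days. In the acute Doxo hearts, 7 of the 10 genes rose past the thresholds for a call, which were an adjusted p below 0.05 together with a change of 1.5-fold or more, and none fell past them. The largest rises were in *Hsd11b1*, *Cebpd*, *Fkbp5* and *Ddit4*, followed by *Errfi1*, *Sgk1* and *Klf9*. Of all 14240 tested genes, 30.1% were called in either direction, 14.7% as higher and 15.4% as lower. The median log2 fold change of the 10 genes was 0.89, beside −0.0016 over all tested genes. By adjusted p alone 8 of the 10 passed, 7 as higher and the receptor gene as lower, against a background of 68.1% of all genes. The plot of acute CPM shows the hearts behind these counts.

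**Figure D1:**
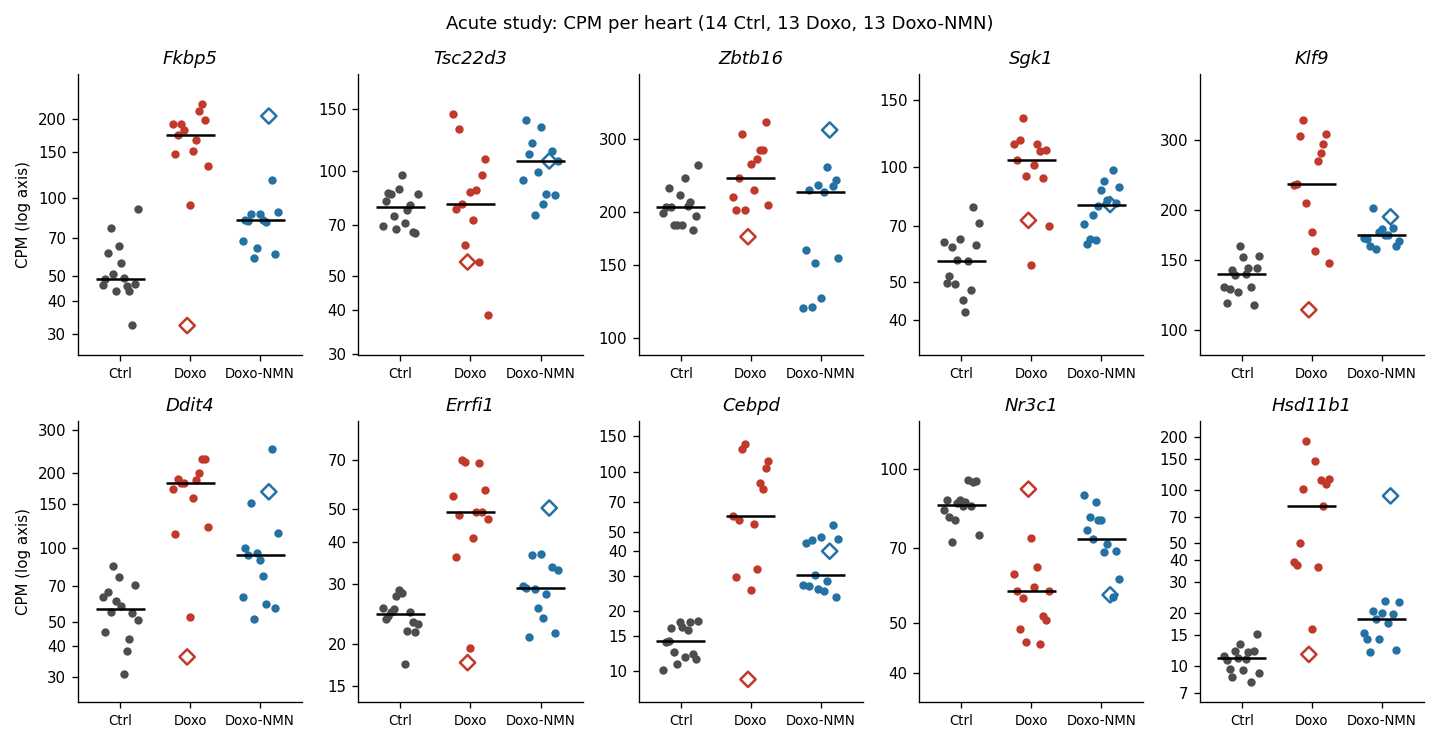
Level of each of the 10 genes in every acute heart, in CPM on a log axis, with 1 point per heart, a black line at the median of each group, and open diamonds for Doxo replicate 6 and Doxo-NMN replicate 10. *Cebpd* was 10.1 to 17.95 CPM in Ctrl and 23.6 to 53.7 CPM in Doxo-NMN hearts, with no overlap.

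*Hsd11b1* (chromosome 1, 193221634 to 193264075, minus strand, ENSMUSG00000016194) makes the enzyme that turns inactive 11-keto steroids back into active hormone. Its level was 8.07 to 15.2 CPM in Ctrl hearts (median 11.03), 11.6 to 188 CPM in Doxo hearts (median 80.3) and 11.9 to 92.2 CPM in Doxo-NMN hearts (median 18.3). Of the 13 Doxo hearts, 12 lay above the highest Ctrl heart, and the remaining one, Doxo replicate 6, lay within the Ctrl range. The log2 fold change of Doxo vs. Ctrl was 2.87 ± 0.325 (SE, adjusted p = 1.87e-09), which is 7.31-fold. Doxo-NMN hearts were lower than Doxo hearts by a log2 fold change of −1.78 ± 0.320 (adjusted p = 2.51e-05), and 12 of 13 lay below the Doxo median. Against Ctrl they remained 1.09 ± 0.311 higher on the log2 scale (adjusted p = 0.00879), with 9 of 13 above the highest Ctrl heart. This last call rests on 1 heart, since without Doxo-NMN replicate 10 the value was 0.68 and the adjusted p 0.0586. With that heart left out, the Doxo-NMN range narrowed to 11.9 to 23.3 CPM.

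*Nr3c1* (ENSMUSG00000024431) encodes the glucocorticoid receptor, and hormone is known to lower its transcript in many tissues. Ctrl hearts had 72.1 to 95.2 CPM (median 85.2), Doxo hearts 45.7 to 91.3 CPM (median 57.9) and Doxo-NMN hearts 56.4 to 88.8 CPM (median 72.9). It was the only one of the 10 genes with a lower mean in Doxo than in Ctrl hearts, and 11 of 13 Doxo hearts lay below the lowest Ctrl heart. The difference passed the adjusted p but not the fold limit, at −0.53 ± 0.0818 log2 (adjusted p = 6.22e-07). Without Doxo replicate 6, whose 91.3 CPM was the highest of the group, it was −0.60 and passed both. Doxo-NMN hearts were 0.31 ± 0.0830 above Doxo hearts (adjusted p = 0.00214) and −0.22 ± 0.0815 from Ctrl hearts (adjusted p = 0.0406), again within the fold limit.

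*Fkbp5* (chromosome 17, 28399094 to 28517527, minus strand, ENSMUSG00000024222) encodes the co-chaperone that lowers the receptor's affinity for hormone. Ctrl hearts had 32.5 to 90.8 CPM (median 48.9), Doxo hearts 32.3 to 228 CPM (median 174) and Doxo-NMN hearts 58.5 to 205 CPM (median 82.0). All 12 Doxo hearts other than replicate 6 lay above every Ctrl heart, with a lowest value of 93.7 CPM. The rise was 1.58 ± 0.193 log2, or 2.99-fold (adjusted p = 8.29e-09), and Doxo-NMN hearts were −0.86 ± 0.194 from Doxo hearts (adjusted p = 0.000399). Doxo-NMN hearts still exceeded Ctrl hearts by 0.72 ± 0.190 (adjusted p = 0.00458), each of the 13 above the Ctrl median but only 2 above the highest Ctrl heart. Without Doxo-NMN replicate 10, at 205 CPM, this difference was 0.56 with an adjusted p of 0.0169 and fell short of the fold limit.

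*Cebpd* (chromosome 16, 15887286 to 15891031, plus strand, ENSMUSG00000071637) encodes the transcription factor C/EBPδ, which responds to glucocorticoids and to inflammatory signals. It had 10.1 to 17.95 CPM in Ctrl (median 14.1), 9.12 to 137 CPM in Doxo (median 59.6) and 23.6 to 53.7 CPM in Doxo-NMN hearts (median 30.2). Doxo hearts except replicate 6 did not overlap with Ctrl hearts, and Doxo-NMN hearts did not overlap with them at all. Doxo vs. Ctrl gave 2.31 ± 0.247 log2, a 4.96-fold rise (adjusted p = 6.36e-10). Doxo-NMN vs. Doxo gave −0.99 ± 0.243 (adjusted p = 0.000869), with all 13 Doxo-NMN hearts below the Doxo median, and Doxo-NMN vs. Ctrl gave 1.32 ± 0.241 (adjusted p = 0.000117). *Fkbp5*, *Cebpd* and *Hsd11b1* were thus the 3 genes whose 12 remaining Doxo hearts all exceeded every Ctrl heart, as 7.72% of all tested genes did. *Cebpd* alone did so in Doxo-NMN hearts, as 0.815% of all genes did.

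The other transcriptional regulators of the list moved less. *Klf9* (chromosome 19, 23141226 to 23168134, plus strand), a Krüppel-like factor, had 116 to 163 CPM in Ctrl (median 138), 113 to 337 CPM in Doxo (median 232) and 160 to 203 CPM in Doxo-NMN hearts (median 173). Doxo hearts were 0.78 ± 0.107 higher on the log2 scale (adjusted p = 6.95e-08), with 10 of 13 above every Ctrl heart. Doxo-NMN hearts differed by −0.43 ± 0.109 from Doxo (adjusted p = 0.00121) and by 0.35 ± 0.107 from Ctrl hearts (adjusted p = 0.0131), and neither reached the fold limit. They were also the most uniform group for this gene, with an SD of 12.1 CPM beside 14.04 in Ctrl and 70.6 CPM in Doxo hearts. *Zbtb16* (chromosome 9, 48654297 to 48836222, minus strand), which encodes the zinc finger repressor PLZF, had 182 to 260 CPM in Ctrl (median 206), 175 to 328 CPM in Doxo (median 241) and 118 to 314 CPM in Doxo-NMN hearts (median 223). The groups overlapped, the difference of Doxo from Ctrl was 0.24 ± 0.119 (adjusted p = 0.0704), and only Doxo-NMN vs. Doxo passed the adjusted p, at −0.33 ± 0.121 (adjusted p = 0.0224). For *Zbtb16*, 6 Doxo-NMN hearts lay below every Ctrl heart while the others lay within or above the Ctrl range, and the mean of Doxo-NMN differed from Ctrl by −0.086 ± 0.119 (adjusted p = 0.628). *Tsc22d3* (chromosome X, 140539528 to 140600659, minus strand), known as GILZ and a mediator of the anti-inflammatory action of glucocorticoids, had 66.6 to 97.5 CPM in Ctrl (median 78.7), 38.7 to 145 CPM in Doxo (median 80.3) and 75.0 to 139 CPM in Doxo-NMN hearts (median 107). In the Doxo group, 4 hearts lay above and 4 below the whole Ctrl range, and the mean difference was 0.10 ± 0.132 (adjusted p = 0.490). Its median was highest in Doxo-NMN hearts, which differed by 0.40 ± 0.131 log2 from Ctrl (adjusted p = 0.0202, under the fold limit) and by 0.30 ± 0.134 from Doxo (adjusted p = 0.0559).

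Among the effectors that act on growth and stress signalling, *Ddit4* (chromosome 10, 59949669 to 59951834, minus strand), whose product REDD1 inhibits mTORC1, had 30.8 to 84.4 CPM in Ctrl (median 56.7), 36.1 to 229 CPM in Doxo (median 183) and 51.2 to 250.2 CPM in Doxo-NMN hearts (median 93.7). Of the Doxo hearts, 11 lay above every Ctrl heart, and replicates 6 and 7 lay within the Ctrl range. The rise was 1.48 ± 0.229 log2, 2.78-fold (adjusted p = 6.71e-07), and Doxo-NMN hearts exceeded Ctrl hearts by 0.89 ± 0.227 (adjusted p = 0.00359). Doxo-NMN vs. Doxo was −0.59 ± 0.231 (adjusted p = 0.0308), which is 1.501-fold and just past the fold limit, and it was no longer called after leaving out any 1 of 21 of the 40 hearts. *Errfi1* (chromosome 4, 150853919 to 150868892, plus strand), whose product MIG6 restrains EGF receptor signalling, had 17.5 to 28.8 CPM in Ctrl (median 24.4), 17.6 to 70.04 CPM in Doxo (median 48.96) and 21.02 to 50.4 CPM in Doxo-NMN hearts (median 29.2). Of the Doxo hearts, 11 lay above every Ctrl heart. It rose in Doxo hearts by 0.99 ± 0.150 (adjusted p = 4.65e-07), fell from Doxo to Doxo-NMN by 0.65 log2 (SE 0.153, adjusted p = 0.000547), and its Doxo-NMN hearts differed from Ctrl by 0.33 ± 0.150 (adjusted p = 0.0935). *Sgk1* (chromosome 10, 21882184 to 21999903, plus strand), a kinase that regulates ion channels and transporters, had 41.96 to 78.5 CPM in Ctrl (median 57.0), 55.4 to 134 CPM in Doxo (median 104) and 63.0 to 98.2 CPM in Doxo-NMN hearts (median 79.9). Doxo hearts were 0.80 ± 0.103 higher (adjusted p = 2.68e-08), with 10 of 13 above every Ctrl heart. Doxo-NMN hearts were between the others, −0.34 ± 0.105 from Doxo (adjusted p = 0.00726) and 0.46 ± 0.103 from Ctrl (adjusted p = 0.00110), under the fold limit in both.

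Taking the Doxo-NMN comparisons as a whole, 5 of the 10 genes were called lower in Doxo-NMN than in Doxo hearts (*Hsd11b1*, *Cebpd*, *Fkbp5*, *Errfi1* and *Ddit4*) and none higher, where 17.1% of all genes were called. By adjusted p alone 9 passed, 8 as lower and *Nr3c1* as higher, beside 53% of all genes. Against Ctrl, 4 of the 10 were called higher in Doxo-NMN hearts (*Cebpd*, *Hsd11b1*, *Ddit4* and *Fkbp5*), where 7.11% of all genes were called, and 8 passed the adjusted p, beside 26%. The 3 comparisons share their groups, so their values are not independent of each other. Median log2 fold changes of the 10 genes were −0.51 for Doxo-NMN vs. Doxo and 0.43 for Doxo-NMN vs. Ctrl, beside −0.00083 and 0.0065 over all genes. Without Doxo-NMN replicate 10, the count against Ctrl was 2 (*Cebpd* and *Ddit4*), beside 5.89% of all genes.

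**Figure D2:**
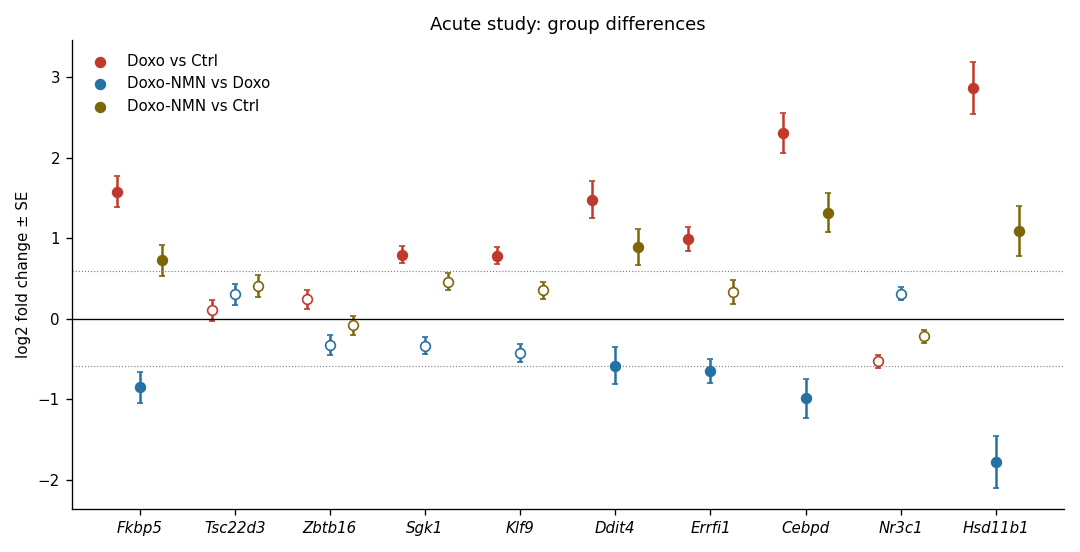
Log2 fold change with its SE (bars) of each gene in the 3 comparisons of the acute study, from 1 edgeR fit over 40 hearts, with filled points for genes called and dotted lines at 1.5-fold. Doxo vs. Ctrl ran from −0.53 for *Nr3c1* to 2.87 for *Hsd11b1*, and the genes called in Doxo-NMN vs. Doxo lay on the other side of 0.

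Cell type markers moved with the same groups. All 4 red cell markers were called lower in each acute comparison (*Alas2* at −5.17 and *Hbb-bt* at −5.75 log2 in Doxo vs. Ctrl), and summed to 397 to 3913 CPM in Ctrl, 0.954 to 305 CPM in Doxo and 0.209 to 2.48 CPM in Doxo-NMN hearts, the 305 CPM being Doxo replicate 6. The 3 tested of 4 neutrophil markers were called higher in Doxo vs. Ctrl (*S100a8* at 5.04 and *Retnlg* at 4.48 log2), lower in Doxo-NMN vs. Doxo and higher in Doxo-NMN vs. Ctrl. They summed to 0.570 to 3.88 CPM in Ctrl, 1.40 to 255 CPM in Doxo and 2.85 to 26.8 CPM in Doxo-NMN hearts, with 1.40 CPM in Doxo replicate 6 and 26.8 CPM in Doxo-NMN replicate 10, and *Ly6g* was too low to test. In Doxo vs. Ctrl, 2 of 4 macrophage markers were called lower (*Csf1r* at −1.07 and *Adgre1* at −1.44 log2), as was 1 each of the endothelial (*Kdr*), fibroblast (*Col1a1*), smooth muscle and pericyte (*Acta2*), adipocyte (*Plin1*), lymphocyte (*Cd79a*) and atrial (*Nppa*) markers. Of 5 heart muscle markers, *Tnnt2* was called higher and *Myh6* and *Actc1* lower, and their sum was 50965 to 64102 CPM in Ctrl (median 57218), 24555 to 67024 CPM in Doxo (median 46977) and 32188 to 73156 CPM in Doxo-NMN hearts (median 63187), the 32188 CPM being replicate 10, so that the lowest Doxo and Doxo-NMN hearts lay below every Ctrl heart. In Doxo-NMN vs. Doxo, *Myh6*, *Actc1*, *Col1a1*, *Plin1*, *Adgre1* and *Acta2* were called higher and *Dcn* and *Tcf21* lower, and in Doxo-NMN vs. Ctrl *Kdr*, *Col1a1*, *Tcf21* and *Csf1r* were called lower. The atrial markers summed to 43.9 to 4922 CPM in Ctrl, 32.5 to 1677 CPM in Doxo and 27.1 to 3459 CPM in Doxo-NMN hearts, so the samples held different amounts of atrial tissue. The part of these cell types in the differences of the 10 genes was not tested. In the hearts with under 100 CPM of the atrial gene *Myl4* alone, 7 of the 10 genes were again called in Doxo vs. Ctrl (30.0% of all genes) and 4 in Doxo-NMN vs. Doxo (16.3%), but 1 in Doxo-NMN vs. Ctrl (4.03%). In the other acute hearts, 8 Ctrl, 5 Doxo and 4 Doxo-NMN, the counts were 7, 4 and 3, beside 28.5%, 16.1% and 4.06% of all genes. There *Tsc22d3* was called higher in Doxo-NMN than in Ctrl hearts (0.60 ± 0.112, adjusted p = 0.00278) and *Zbtb16* lower in Doxo-NMN than in Doxo hearts (−0.76 ± 0.159, adjusted p = 0.00171), 2 calls that neither all acute hearts nor those with low *Myl4* gave.

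The levels of the 10 genes also varied from heart to heart within a group. *Fkbp5* was correlated with the other 9 genes on log2 CPM within each acute group, 27 relations in all, with permutation tests of 100000 resamples adjusted over the 27. In Doxo hearts it went with *Ddit4* most closely (Pearson r = 0.94, Spearman rho = 0.89, n = 13). The permutation p of this r was 1e-05, the smallest these resamples can give (adjusted p = 0.00027), and that of rho was 0.00015 (adjusted p = 0.00405). Without replicates 6 and 7, the hearts farthest from the *Fkbp5* median, r was 0.87 (permutation p = 0.00048, adjusted p = 0.013), and among the 8 Doxo hearts with low *Myl4* r was 0.98.

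The receptor gene ran against *Fkbp5* in all 3 groups, with r of −0.77 in Ctrl (rho = −0.60), −0.86 in Doxo (rho = −0.71) and −0.74 in Doxo-NMN hearts (rho = −0.63). The permutation p-values of r were 0.00152, 0.00042 and 0.00164, adjusted to 0.00738, 0.00331 and 0.00738. Those of rho were adjusted to 0.0458, 0.0295 and 0.0458. Without the 2 farthest hearts of each group r was −0.51, −0.50 and −0.46, with adjusted permutation p-values of 0.236, 0.257 and 0.257. Leaving these hearts out narrows the range of *Fkbp5* and leaves fewer hearts. The lower r therefore cannot show whether the relations rest on them. Of the 27 relations, 19 passed an adjusted p of 0.05 by Pearson r and 16 by Spearman rho, with 5 and 3 in Ctrl, 8 and 6 in Doxo, and 6 and 7 in Doxo-NMN hearts. That of *Ddit4* in Doxo hearts was the 1 relation that still passed without the 2 farthest hearts. In Doxo hearts, *Errfi1* (r = 0.87, rho = 0.84), *Cebpd* (r = 0.81, rho = 0.62), *Klf9* (r = 0.80, rho = 0.77) and *Hsd11b1* (r = 0.71, rho = 0.42) rose and fell with *Fkbp5*. For these, r without the 2 hearts was 0.63, 0.34, 0.73 and 0.089.

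**Figure D3:**
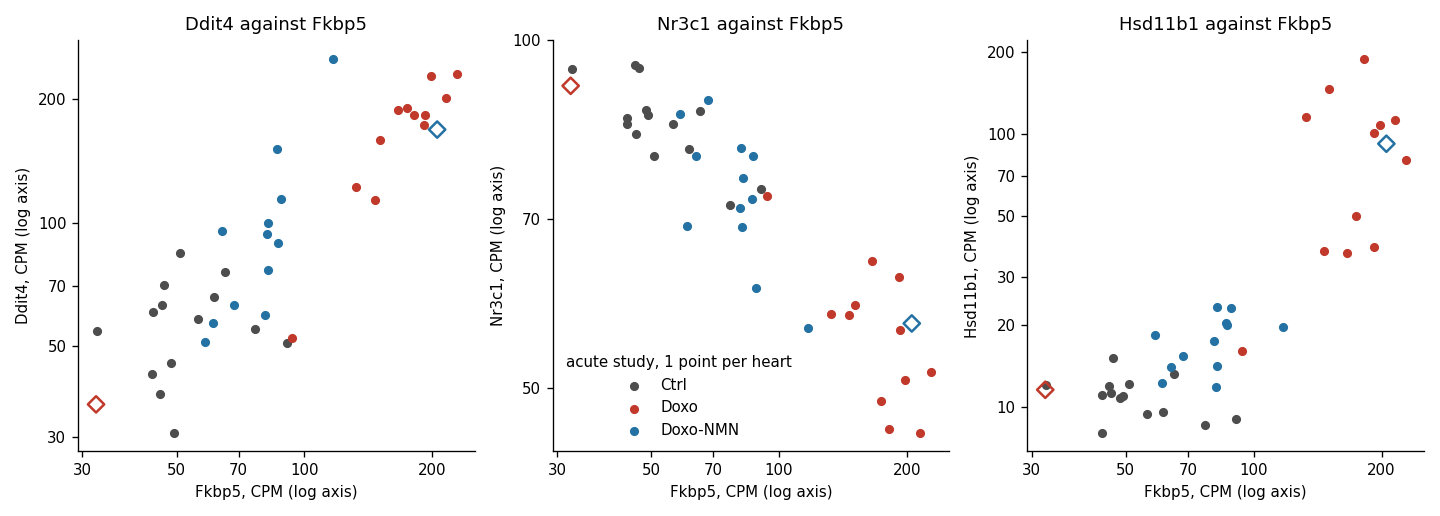
CPM of *Ddit4*, *Nr3c1* and *Hsd11b1* against CPM of *Fkbp5* in the 40 acute hearts, both on log axes, coloured by group, with open diamonds for Doxo replicate 6 and Doxo-NMN replicate 10. The first lay near the Ctrl hearts, with *Nr3c1* at 91.3 CPM, and the second near the Doxo hearts, with *Hsd11b1* at 92.2 CPM.

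The rest of the pathway was read from 6 further lists of known genes, of which the genes with the smallest adjusted p are named. Beside each count stands the share of all tested genes called in the same direction. Of 22 other glucocorticoid-induced genes, all tested, 13 were called higher and 1 lower in acute Doxo vs. Ctrl, beside 14.7% and 15.4% of all genes, with a median log2 fold change of 0.89. *Per1*, a clock gene with a response element in its promoter, rose by 2.98 ± 0.245 log2 (adjusted p = 9.34e-12), from 22.3 to 41.5 CPM in Ctrl to 17.9 to 372 CPM in Doxo hearts, and the metallothionein *Mt2* by 4.298 ± 0.435 (adjusted p = 2.51e-10). *Angptl4*, an inhibitor of lipoprotein lipase, was the one called lower, at −1.47 ± 0.600 (adjusted p = 0.0292). In Doxo-NMN vs. Doxo, none was called higher and 11 lower (8.17% and 8.88% of all genes), among them *Mt2* (−3.14 ± 0.417) and the cell cycle inhibitor *Cdkn1a* (−1.24 ± 0.168), which is also a target of p53. In Doxo-NMN vs. Ctrl, 8 were called higher (3.31% of all genes), among them *Per1* (1.79 ± 0.236) and *Arrdc2* (1.39 ± 0.190), and 3 lower (3.79%), among them *Angptl4* (−2.94 ± 0.641) and *Pdk4* (−1.47 ± 0.431), a brake on glucose oxidation.

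Of 12 receptor chaperones, 2 were called lower in Doxo vs. Ctrl, *Fkbp4* (−1.31 ± 0.167, adjusted p = 1.81e-08) and *Hspa1b* (−0.84 ± 0.207), and none higher, where 15.4% of all genes were lower and 14.7% higher. *Fkbp4* encodes FKBP52, which favours hormone binding where FKBP51, the product of *Fkbp5*, hinders it, and it went from 320 to 526.5 CPM in Ctrl to 101 to 468 CPM in Doxo and 153 to 398 CPM in Doxo-NMN hearts. It was called higher in Doxo-NMN than in Doxo hearts (0.79 ± 0.168, adjusted p = 0.000178), while *Hspa1a* (−1.11 ± 0.253) and *Hspa1b* (−0.67 ± 0.213) were lower, beside 8.17% of all genes higher and 8.88% lower. In Doxo-NMN vs. Ctrl 2 chaperones were called lower, the same heat shock genes *Hspa1b* (−1.51 ± 0.211) and *Hspa1a* (−1.36 ± 0.250), and none higher, beside 3.79% and 3.31% of all genes. These 2 are near-identical copies, so that reads may be split between them. Of 10 coregulators none was called in Doxo vs. Ctrl (30.1% of all genes in either direction) or in Doxo-NMN vs. Ctrl (7.11%), and 1 was lower in Doxo-NMN vs. Doxo (8.88%), *Nrip1* (−0.59 ± 0.0962, adjusted p = 6.78e-06).

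Of 8 genes that set how much steroid reaches the receptor, 6 were tested. The exporters *Abcb1b* (1.499 ± 0.207, adjusted p = 7.76e-08) and *Abcb1a* (0.79 ± 0.112, adjusted p = 1.41e-07) were called higher in Doxo vs. Ctrl, and the steroid-reducing enzymes *Akr1c14* (−1.66 ± 0.259) and *Srd5a1* (−0.67 ± 0.194) lower, beside 14.7% and 15.4% of all genes. In Doxo-NMN vs. Doxo, *Akr1c14* (0.98 ± 0.259) and *Srd5a1* (0.67 ± 0.196) were called higher and *Abcb1b* (−1.06 ± 0.209) lower (8.17% and 8.88% of all genes), and in Doxo-NMN vs. Ctrl *Akr1c14* was called lower (−0.68 ± 0.249, 3.79% of all genes). *Hsd11b2*, which inactivates the hormone, was at 0 to 0.227 CPM in the acute hearts and was not tested, nor was *Serpina6*, which carries the hormone in blood. *H6pd*, which supplies the cofactor of the *Hsd11b1* enzyme, had a median of 40.8 CPM in Ctrl, 40.5 in Doxo and 41.3 in Doxo-NMN hearts, with a log2 difference of −0.0085 ± 0.0591 for Doxo vs. Ctrl (adjusted p = 0.906). *Nr3c2*, the mineralocorticoid receptor, which also binds glucocorticoids, had medians of 20.9, 19.3 and 24.6 CPM and was 0.29 ± 0.0899 higher in Doxo-NMN than in Doxo hearts by adjusted p alone (adjusted p = 0.00616).

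Of 12 inflammatory genes that glucocorticoids are known to repress, 11 were tested, and 6 were called higher and 1 lower in Doxo vs. Ctrl, beside 14.7% and 15.4% of all genes. The chemokines *Cxcl2* (5.55 ± 0.757) and *Cxcl1* (3.77 ± 0.528) were among those that rose, and *Nos2* was lower (−0.98 ± 0.191). In Doxo-NMN vs. Doxo, 8 were called lower and none higher (8.88% and 8.17% of all genes), with *Cxcl2* at −5.55 ± 0.776 and *Cxcl1* at −3.64 ± 0.539, and in Doxo-NMN vs. Ctrl only *Nos2* was called (−0.68 ± 0.189), as lower, beside 3.79% of all genes. *Per1* is also 1 of 16 clock genes, of which 7 were called higher in Doxo vs. Ctrl (14.7% of all genes), among them *Per1* and *Cry2* (1.74 ± 0.165), and 1 lower (15.4%), *Npas2* (−0.67 ± 0.164). In Doxo-NMN vs. Doxo, *Dbp* was the 1 clock gene called higher (1.48 ± 0.208, 8.17% of all genes) and 4 were lower (8.88%), among them *Arntl* (−1.77 ± 0.210) and *Cry2* (−0.84 ± 0.165). In Doxo-NMN vs. Ctrl, 8 clock genes were higher (3.31% of all genes), among them *Per3* (1.61 ± 0.143) and *Per2* (1.79 ± 0.184), and 3 lower (3.79%), among them *Clock* (−0.61 ± 0.0509) and *Arntl* (−2.17 ± 0.209). *Klf9*, *Zbtb16* and *Per1* are known to follow the time of day as well as the hormone, and the hour at which each heart was taken is not in the labels, so its part in these values was not tested.

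The second question was whether these genes differed after 60 days of the chronic regimen. None of the 10 was called in any of the 3 chronic comparisons, by edgeR at an adjusted p of 0.05. Of all 14960 tested genes, 0.0602% were called between Doxo and Ctrl hearts, 0.0% between the Doxo groups with and without NMN, and 0.0401% between Doxo-NMN and Ctrl hearts. At an unadjusted p under 0.05 there were 3, 1 and 0 of the 10 genes in the same order, beside 7.85%, 2.95% and 4.73% of all genes. DESeq2 and limma with sample weights also called 0 in each comparison. None of the 22 other induced genes was called either, nor any gene of the chaperone, coregulator, steroid, inflammatory, clock and cell type lists.

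**Figure D4:**
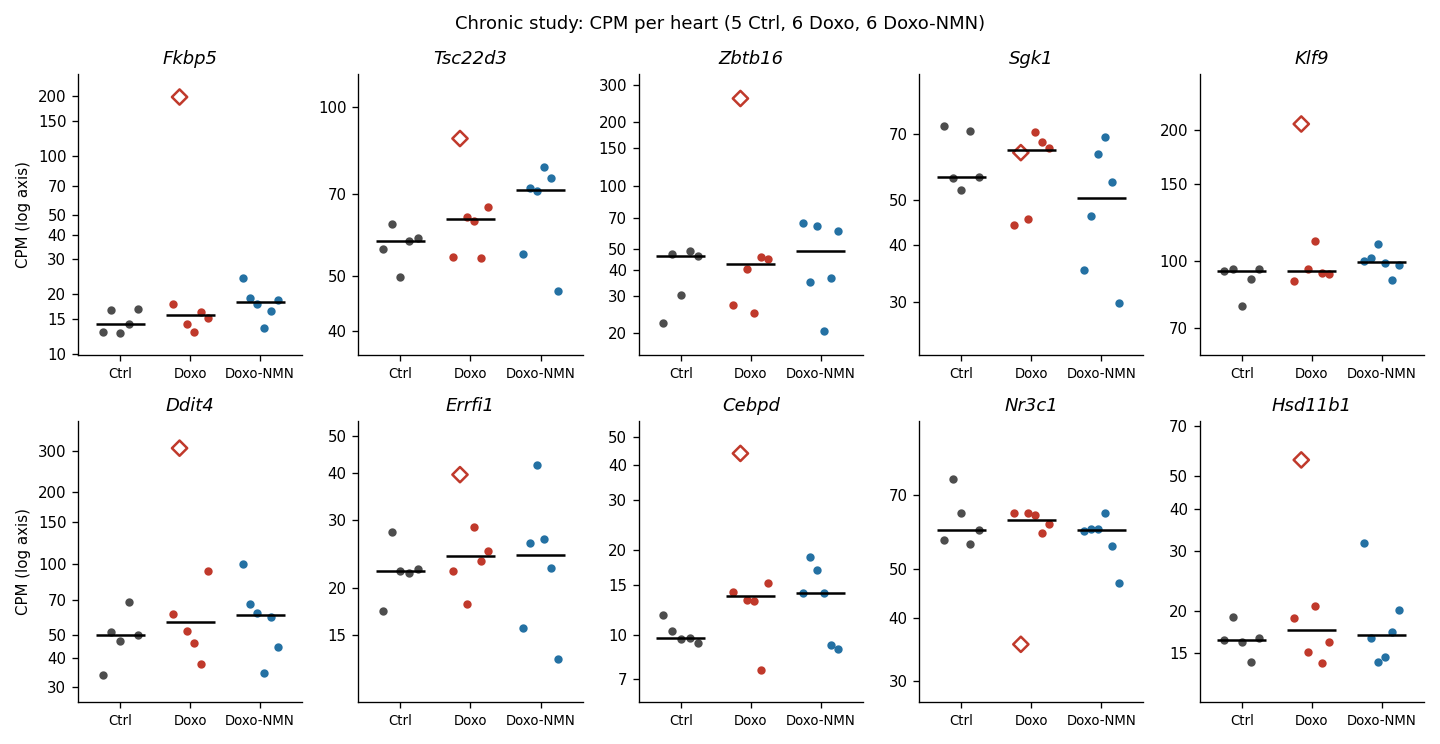
Level of each of the 10 genes in every chronic heart, in CPM on a log axis, with 1 point per heart and a black line at the median of each group. The open diamond is Doxo replicate 2, which reached 197 CPM of *Fkbp5* and 308 CPM of *Ddit4* and had the lowest *Nr3c1*, 35.5 CPM.

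*Fkbp5* was 12.96, 16.8, 12.8, 14.1 and 16.8 CPM in the 5 chronic Ctrl hearts, in the order of their replicate numbers. The Doxo hearts had 17.8, 197, 14.1, 12.995, 16.3 and 15.3 CPM, and the Doxo-NMN hearts had a lowest value of 13.5, a median of 18.3 and a highest of 24.3 CPM. All but Doxo replicate 2 lay between 12.8 and 24.3 CPM, and the groups overlapped. The log2 fold change of Doxo vs. Ctrl was 1.63 ± 0.603 (unadjusted p = 0.0138, adjusted p = 0.567) and without that heart 0.060 ± 0.135. Doxo-NMN vs. Doxo went from −1.31 ± 0.557 to 0.26 ± 0.129 when it was left out.

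The same heart was at the top for 7 of the 10 genes, *Fkbp5*, *Tsc22d3*, *Zbtb16*, *Klf9*, *Ddit4*, *Cebpd* and *Hsd11b1*, above all 16 other chronic hearts, as were 20.5% of all tested genes. It was at the bottom for *Nr3c1*, as for 20.7% of all genes. *Zbtb16* was 258 CPM in it and 20.5 to 66.9 CPM in the others, *Klf9* 206 CPM beside 78.9 to 111 CPM, and *Hsd11b1* 55.7 CPM beside 14.02 to 31.7 CPM. *Ddit4* was 308 CPM beside 33.8 to 99.9 CPM, and *Cebpd* 43.9 CPM beside 7.53 to 18.8 CPM. The directions are those of the acute Doxo hearts for *Fkbp5*, *Ddit4*, *Cebpd*, *Klf9*, *Hsd11b1* and *Nr3c1*. *Per1* in this heart was 207 CPM and *Mt1* 289 CPM, against 40.8 to 133 and 54.1 to 118 CPM in the 16 other hearts. *Mt2*, *Cdkn1a* and *Lcn2* were also above the others. Further induced genes lay within the range of the others. These were *Dusp1* (80.6 CPM beside 68.9 to 216), *Pdk4* (201 CPM beside 89.0 to 268) and *Angptl4* (1.78 CPM beside 0.330 to 7.70). The rest of the 22 other induced genes were not compared heart by heart in the chronic study, so this is no full account of them. The red cell markers of this heart summed to 14.2 CPM, the lowest of all chronic hearts. Its neutrophil markers summed to 5.63 CPM and its atrial markers to 536 CPM, each the highest of them. It was also lowest for the endothelial markers (628 CPM) and the smooth muscle and pericyte markers (551 CPM). The same held for the macrophage and lymphocyte markers and for the inflammatory genes that glucocorticoids repress. Its heart muscle, fibroblast and adipocyte markers lay within the range of the other chronic hearts. The part of these cell types was not tested.

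For the genes that this heart did not lead, the chronic groups also overlapped. *Sgk1* was 52.8 to 72.6 CPM in Ctrl, 44.1 to 70.6 CPM in Doxo and 29.8 to 68.9 CPM in Doxo-NMN hearts (Doxo vs. Ctrl −0.057 ± 0.187, adjusted p = 0.957). *Errfi1* was 17.3 to 27.9, 18.1 to 39.5 and 13.03 to 41.96 CPM in the same order (0.23 ± 0.238, adjusted p = 0.823). *Cebpd* of the 5 other Doxo hearts was 7.53 to 15.2 CPM beside 9.39 to 11.8 CPM in Ctrl hearts, with 4 of them above every Ctrl heart, and its difference went from 0.80 ± 0.322 (adjusted p = 0.584) to 0.32 ± 0.198 without Doxo replicate 2. For *Ddit4* the change was from 0.99 ± 0.434 to 0.21 ± 0.257, for *Zbtb16* from 0.91 ± 0.503 to −0.085 ± 0.285, and for *Hsd11b1* from 0.50 ± 0.298 to 0.043 ± 0.180. *Tsc22d3* went from 0.19 ± 0.136 to 0.086 ± 0.120, *Klf9* from 0.34 ± 0.168 to 0.090 ± 0.0802 and *Nr3c1* from −0.10 ± 0.131 to 0.0050 ± 0.0940. *Sgk1* and *Errfi1* were at −0.074 ± 0.196 and 0.077 ± 0.227 without that heart.

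The third question was whether the effect of Doxo differed between the studies, which was tested as an interaction over the Ctrl and Doxo hearts of both. The effect was smaller in the chronic study for 3 of the 10 genes, beside 19.3% of all 14965 genes tested that were called in either direction. It was −2.36 ± 0.525 for *Hsd11b1* (chronic minus acute, log2, adjusted p = 0.00490), −1.50 ± 0.498 for *Cebpd* (adjusted p = 0.0324) and −0.85 ± 0.204 for *Sgk1* (adjusted p = 0.00686). For *Fkbp5* the difference was 0.067 ± 0.573 (adjusted p = 0.947) with all hearts and −1.52 ± 0.333 (adjusted p = 0.00173) without chronic Doxo replicate 2. Leaving that heart out raised the count of genes called in either direction to 8 of 10, all but *Tsc22d3* and *Zbtb16*, beside 26.5% of all genes in the same fit. Leaving out acute Doxo replicate 6 instead raised it to 5, beside 30.8% of all genes. The Ctrl and Doxo hearts of the 2 studies differ in age, supplier, Doxo schedule, time of collection and sequencing site, and these cannot be told apart.

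**Figure D5:**
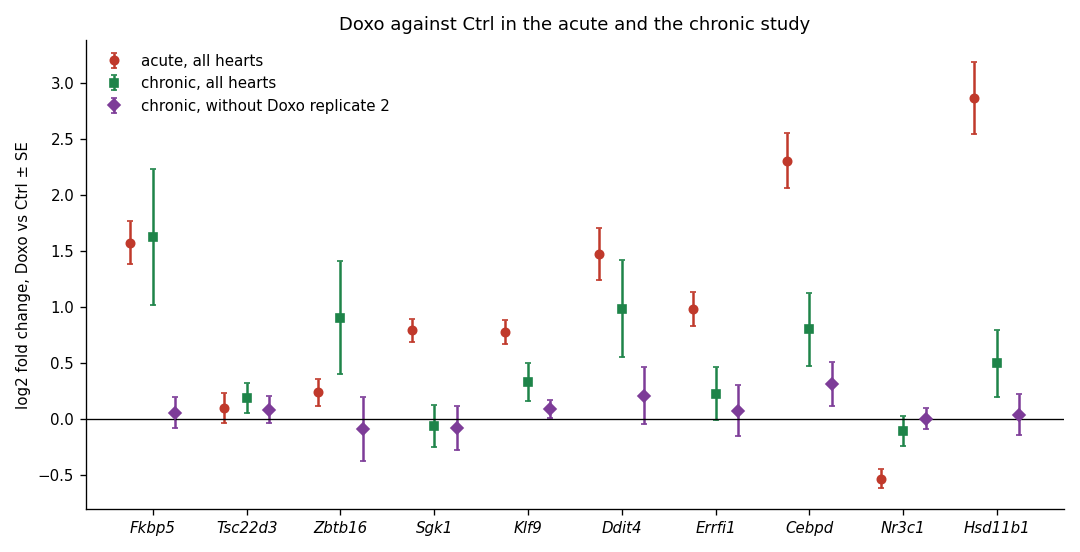
Log2 fold change of Doxo vs. Ctrl with its SE (bars) for each gene in the acute study, in the chronic study, and in the chronic study without Doxo replicate 2. *Fkbp5* was at 1.58 in the acute and 1.63 in the chronic hearts but at 0.060 without that 1 heart, while *Hsd11b1* was at 2.87, 0.50 and 0.043.

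Untreated hearts of the 2 studies also had different levels, which come from separately normalized tables and were not tested. Mean *Fkbp5* was 54.1 ± 15.1 CPM in the 14 acute and 14.7 ± 1.97 CPM in the 5 chronic Ctrl hearts, a ratio of 3.68. *Zbtb16* was 208 ± 22.8 and 39.2 ± 12.1 CPM, a ratio of 5.32. The other 8 genes had ratios between 0.663 (*Hsd11b1*) and 1.4995 (*Klf9*). The acute and chronic Ctrl hearts did not overlap for *Fkbp5*, *Zbtb16*, *Klf9* and *Tsc22d3*. The share of all genes without overlap was not counted, so this cannot be read as a trait of these genes in particular.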

How the data were processed

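Hearts of 57 mice were analysed in 6 groups taken from the sample labels, 40 acute and 17 chronic hearts. The deposited values are raw counts per gene, which the authors made with STAR 2.7.3a and featureCounts 2.0.0 on the mm10 mouse genome, as named in the submitters' processing notes, from poly(A) RNA. No normalization was applied to the counts before deposit, and every column matched a sample. Among counts of 1 to 20, 70.9% to 78.6% per heart were even in the acute and 39.0% to 41.9% in the chronic table, for a cause that was not tested, so acute counts divided by 2 were tried as an alternative.

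Counts were filtered by group with filterByExpr and fitted per study over all 3 groups with the quasi-likelihood test of edgeR 4.0.16 (R 4.3.3) with TMM factors, and p-values were adjusted over all tested genes by Benjamini-Hochberg. Calls needed an adjusted p under 0.05, and in the acute study also a change of 1.5-fold. The difference between studies was an interaction term in a fit over the Ctrl and Doxo hearts of both. CPM used TMM-scaled library sizes, and correlations log2 CPM with a prior count of 2. Gene positions and exon lengths are those of the GRCm38 annotation. The test was tried on simulated data with known fold changes.

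The 10 genes and all lists were chosen with earlier results of these data known. Of each other list, up to 2 called genes per direction were named in every acute comparison, those of smallest adjusted p, with *Nr3c2*, *Hsd11b2* and *H6pd* always named. Those lists are 22 other induced genes, receptor chaperones, coregulators, steroid availability, repressed inflammatory genes, clock genes and cell type markers. Alternatives were DESeq2 1.42.0, limma 3.58.1 (voom, with sample weights within a study), RLE factors, other low-count filters, a robust fit, the replicate number as a block, only the 2 groups compared, hearts with low or high *Myl4*, other thresholds, and leaving out each heart. The interaction without chronic Doxo replicate 2 was added after the data were seen. Replicates are separate hearts.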

Additional observations from a re-analysis of the deposited data

Results flagged for a closer look

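In chronic Doxo replicate 2, 5 of the 10 genes lay farther from the rest of their group than Dixon's 95% limit allows. *Fkbp5* was 197 CPM, *Zbtb16* 258 CPM, *Klf9* 206 CPM, *Hsd11b1* 55.7 CPM and *Nr3c1* 35.5 CPM. A sixth value past that limit was *Klf9* in chronic Ctrl replicate 3, at 78.9 CPM. Of 30 groups of chronic hearts tested, 6 held such a value, and chance gives about 1 in 20. The 5 genes share 1 heart, so they are not separate findings. That heart was above all other chronic hearts for 20.5% of all tested genes and below them for 20.7%. The share of all genes past Dixon's limit was not counted.

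The Doxo effect of 3 genes differed between the studies by the interaction test, where 19.3% of all tested genes were called in either direction. The differences were −0.85 log2 for *Sgk1*, −1.50 for *Cebpd* and −2.36 for *Hsd11b1* (chronic minus acute). The studies differ in several conditions at once, which cannot be told apart.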

How the results depend on the processing

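Of the 330 acute values recomputed under other settings, 314 kept their direction and side of the threshold, 11 lost and 3 gained a call, and 2 changed sign. With 1 heart left out in turn, 1176 of 1200 acute values did so. The replicate block gave 7, 5 and 4 called genes in the acute comparisons and 0 in each chronic one, as without it. The share of all genes called with the block is not given here. The r of same-numbered acute hearts ran from −0.62 to 0.58, with medians of −0.14 (Doxo and Ctrl), 0.12 (Doxo-NMN and Doxo) and 0.26 (Doxo-NMN and Ctrl). In each of these, 1 of 13 hearts went most closely with the heart of its own number. The main fit used no pairing. Without the fold limit, 9 genes were called in Doxo-NMN vs. Doxo and 8 in Doxo-NMN vs. Ctrl, and in hearts with low *Myl4* 1 in the latter. There *Tsc22d3* turned to −0.15 in Doxo vs. Ctrl and *Zbtb16* to 0.12 in Doxo-NMN vs. Ctrl, while in hearts with high *Myl4* these values were 0.46 (adjusted p = 0.000986, under the fold limit) and −0.47 (adjusted p = 0.0504), *Tsc22d3* was called at 0.60 in Doxo-NMN vs. Ctrl and *Zbtb16* at −0.76 in Doxo-NMN vs. Doxo. With 1 heart left out, Doxo-NMN vs. Ctrl held 2 to 4 called genes. The interaction held 5 genes without acute Doxo replicate 6 and 8 without chronic Doxo replicate 2, and by limma voom *Fkbp5* was −0.88 in it. Without the 2 hearts farthest from the *Fkbp5* median, 1 of 19 relations remained. The cause of these changes was not tested. The *Myl4* split was not run in the chronic study, where every heart was under the limit.

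In the chronic study no gene was called under any setting run. With sample weights, the differences of Doxo-NMN vs. Doxo were 0.21 for *Fkbp5*, 0.24 for *Zbtb16*, 0.038 for *Klf9*, 0.079 for *Ddit4*, 0.059 for *Errfi1*, 0.11 for *Cebpd* and 0.11 for *Hsd11b1*, all above 0 where they had been below. With 1 heart left out, they ran from −1.50 to 0.26 for *Fkbp5*, −0.026 to 0.13 for *Tsc22d3*, −0.82 to 0.36 for *Zbtb16*, −0.27 to 0.038 for *Klf9*, −0.91 to 0.072 for *Ddit4*, −0.33 to 0.046 for *Errfi1*, −0.55 to 0.10 for *Cebpd*, −0.12 to 0.041 for *Nr3c1* and −0.51 to 0.16 for *Hsd11b1*. In Doxo vs. Ctrl they ran from −0.085 to 1.09 for *Zbtb16*, −0.11 to 0.020 for *Sgk1* and −0.14 to 0.0050 for *Nr3c1*, and in Doxo-NMN vs. Ctrl from −0.097 to 0.25 for *Errfi1* and −0.0013 to 0.28 for *Hsd11b1*. In the interaction, the 2 fits without one of the hearts named above gave −1.52 and −0.026 for *Fkbp5*, −0.020 and 0.050 for *Tsc22d3*, and −0.33 and 0.65 for *Zbtb16*.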

Other observations

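Among genes other than the 10, those whose levels went most closely with *Fkbp5* over the 40 acute hearts, on log2 CPM with group means subtracted, were *Doc2b* (Pearson r = 0.90), *Os9* (r = 0.89), *Per1* (r = 0.89), *Sult1a1* (r = 0.89) and *Epb41* (r = 0.87). Over the 17 chronic hearts they were *Spock2* (r = 0.97), *Herpud1* (r = 0.97), *Tmbim1* (r = 0.97), *Plin4* (r = 0.96) and *Gm27252* (r = 0.96). Without chronic Doxo replicate 2, the r of these chronic genes were 0.62, 0.52, 0.15, 0.48 and 0.53. Many other genes went with *Fkbp5* more closely than the listed genes did. In the acute order of all tested genes by r, *Ddit4* stood at place 157, *Errfi1* at 170, *Cebpd* at 274 and *Klf9* at 297. *Hsd11b1* stood at place 684, *Zbtb16* at 2169, *Sgk1* at 2396 and *Tsc22d3* at 2745, and *Nr3c1*, with a negative r, at 14214. These values are a description over hearts that share a study and its treatments, and no p is given.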
